A study of Mus musculus with 18 samples.

Results

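The genes described here encode G protein-coupled receptors, proteins named after them, and regulators of G protein signalling (RGS proteins) in RAW264.7 cells, a mouse macrophage-like line. They were chosen by symbol alone: Gpr, Adgr, P2ry, S1pr, Lpar, Ptger, Ccr, Cxcr or Rgs followed by a digit or by a letter and a digit. That rule found 42 genes of the 5390 genes with a single symbol in the authors' deposited table, of which 33 carry a receptor name and 9 an Rgs name. The 42 genes are present as 56 transcript entries, and 8 genes have more than 1 entry. Since the table lists a gene only where the authors called a difference between groups, a receptor that never differed cannot be among them.

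The study asked how the transcriptional co-regulator CITED1 bears on the response of macrophages to interferon-gamma. Poly(A)-selected RNA came from 18 samples in 6 groups of 3. Of these, 4 groups were construct cells (p2080), RAW264.7 cells transduced with a lentiviral vector from which doxycycline induces mouse CITED1. They were given doxycycline at 100 ng/mL together with interferon-gamma at 200 U/mL, interferon-gamma alone, doxycycline alone, or neither. The other 2 groups were parental RAW264.7 cells without the vector, with doxycycline or untreated. The labels do not say whether the construct cells are 1 clone, no parental group received interferon-gamma, and the length of treatment is not given in the sources used here.

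A G protein-coupled receptor spans the membrane 7 times in the textbook picture and, once bound by its ligand, loads GTP onto a heterotrimeric G protein. RGS proteins speed the hydrolysis of that GTP and so shorten the signal. In macrophages chemokine receptors steer migration, while receptors for lysophospholipids, sphingosine 1-phosphate, prostaglandins, oxysterols and nucleotides tune movement, phagocytosis and cytokine release.

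Not every gene with a receptor name fits that picture. Gpr89 encodes a Golgi anion channel, Gpr155 and Gpr137b encode lysosomal membrane proteins, Gpr107 and Gpr108 encode related proteins of the secretory pathway, and Gpr137b-ps is a pseudogene. These 6 are kept as a class of intracellular membrane proteins. The others fall into 7 chemokine receptors, 10 receptors for lipids and nucleotides, 3 adhesion receptors, 7 orphan receptors and the 9 RGS genes.

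A level below is the authors' FPKM, a fragment count scaled to transcript length and library size, for a whole group. Each was worked out from a row's fold and its total over both groups. It has no SD and no n, because the table holds no value per sample and no sequencing depth, and the labels leave unsaid whether the 3 samples of a group were separate cultures. A call is the authors' own: at least 2-fold with a q-value (a p-value adjusted for multiple tests) of 0.05 or less. Of the 345 rows of these genes, 274 carry the smallest q in the table, 3.9e-04, and a q is given below only where it is larger. Of 8 macrophage markers searched for, Itgam, Ptprc and Adgre1 have a row, and Adgre1 is described below. Ptprc stood at 164.3 FPKM with both treatments, 110.7 with interferon-gamma alone, 54.9 with doxycycline alone and 50.8 in untreated construct cells. In parental cells Ptprc was 50.9 and 47.8 FPKM with and without doxycycline. Itgam was 20.0 FPKM with both treatments and 43.95 with doxycycline alone. Among the other cell type markers, Xcr1 and Itgax of the dendritic cell list had levels in all groups. Their sum was 76.3 FPKM with both treatments, 30.8 with interferon-gamma alone, 3.77 with doxycycline alone and 2.08 in untreated construct cells, against 1.59 and 1.38 in parental cells with and without doxycycline. The sum of 5 of 8 osteoclast markers was 99.4, 71.1, 47.2 and 45.8 FPKM in the same construct groups, against 19.5 and 19.0 in parental cells. Dcstamp made up most of it, at 94.2, 63.1, 19.3 and 20.8 FPKM in those construct groups. The other 4 of these markers, Acp5, Ctsk, Nfatc1 and Atp6v0d2, went the other way, at 0.107 to 4.66 FPKM in the construct groups with interferon-gamma against 2.43 to 14.0 FPKM in those without. No T cell, B cell, fibroblast or epithelial marker searched for has a row, and the part of these markers in the results was not tested. The induced gene, Cited1, stood at 86.7 FPKM with both treatments and 11.5 with interferon-gamma alone, and at 168.0 with doxycycline alone against 0.703 in untreated construct cells. Cited1 thus also stood higher with interferon-gamma alone than in untreated construct cells.

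**Figure D1:**
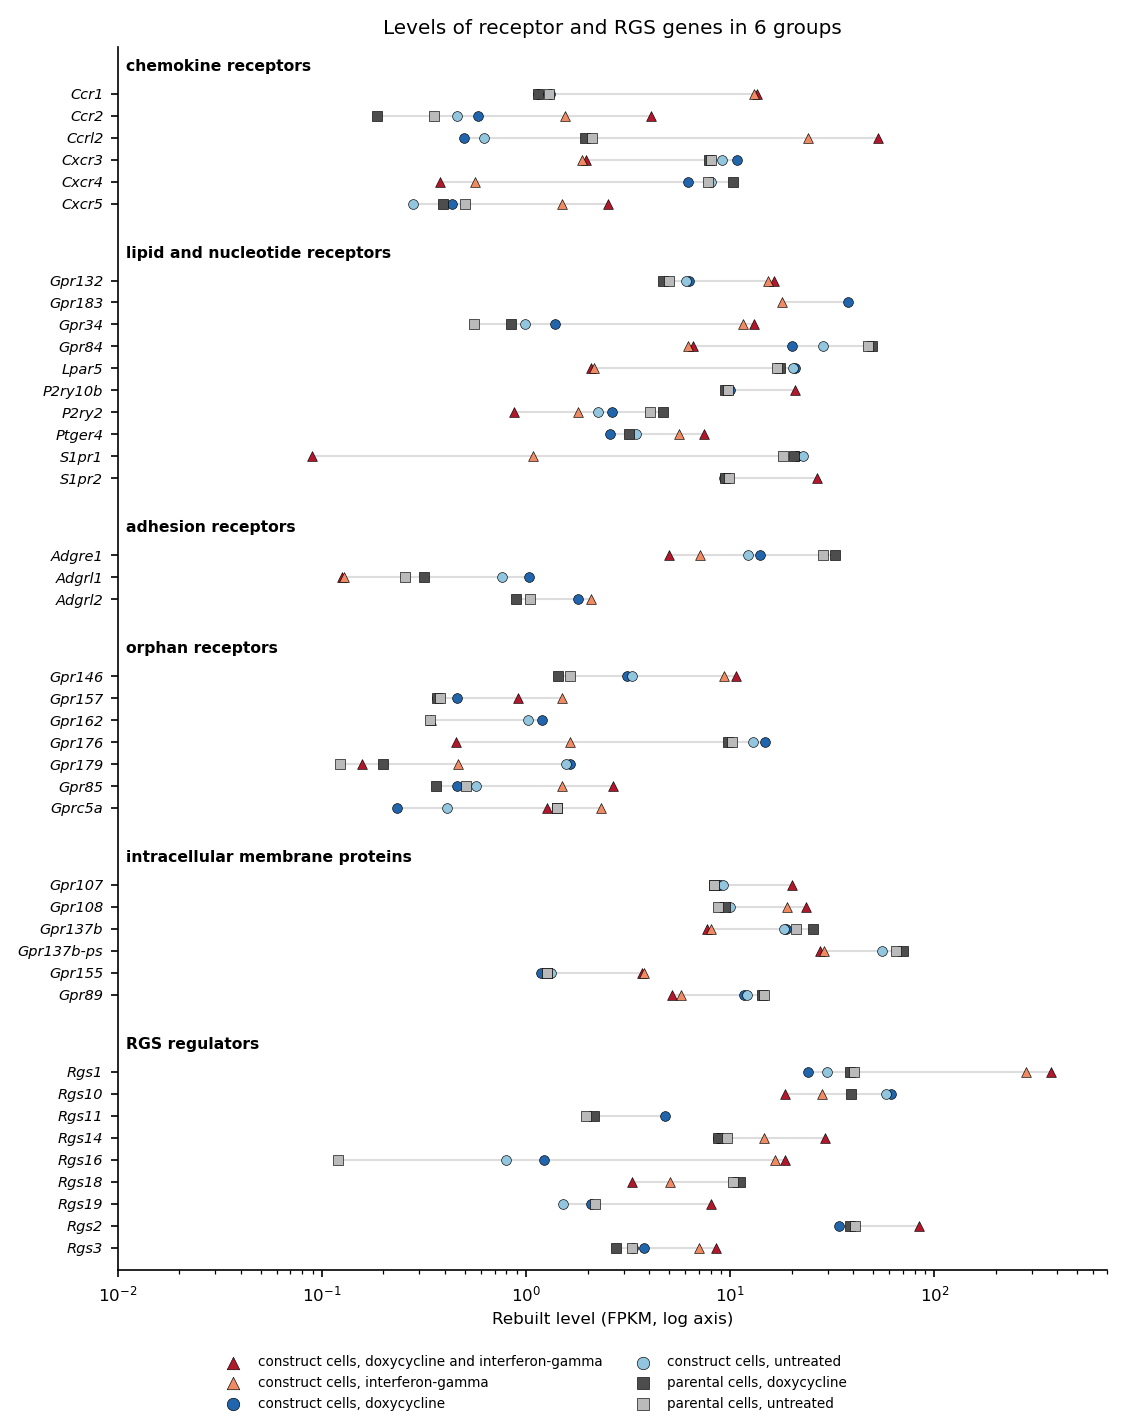
Rebuilt level (FPKM, log axis) of 41 of the 42 genes in each group, from the entry with levels in most groups. Each point is the authors' value for a group of 3 samples, without an error, and a missing point means that no row gives that level. With both treatments S1pr1, Adgrl1 and Gpr179 lie furthest left and Rgs1, Rgs2 and Ccrl2 furthest right.

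The starts of 3 of these genes are shown because their levels are taken up repeatedly below. Ccrl2 and Gpr176 were called with interferon-gamma, with interferon-gamma under induced CITED1, and between both treatments and interferon-gamma alone, and Gpr146 was the only called gene of the interferon-gamma comparison without doxycycline whose promoter window, where one was found, holds a gamma-activated site. Each window runs from 250 bases before to 50 bases after the RefSeq start (build GRCm38.p6), 5′ to 3′ on the gene's strand. Capitals mark matches to any of 4 motifs searched on both strands: the gamma-activated site TTCNNNGAA, the interferon-stimulated response element, the cyclic AMP response element TGACGTCA, and the NF-kB consensus. Those marked in Ccrl2 and Gpr176 match the NF-kB consensus and the one in Gpr146 the gamma-activated site, and none of the marked matches overlaps another. Gpr85, through different entries, and S1pr1 were called in the same comparisons as Ccrl2 and Gpr176. The window of Gpr85 holds no match to any of the 4 motifs and is not shown, and no window was found for S1pr1. That all 3 windows shown hold a match is therefore not typical of these genes.
Ccrl2 (chr9:111057469-111057768, minus strand): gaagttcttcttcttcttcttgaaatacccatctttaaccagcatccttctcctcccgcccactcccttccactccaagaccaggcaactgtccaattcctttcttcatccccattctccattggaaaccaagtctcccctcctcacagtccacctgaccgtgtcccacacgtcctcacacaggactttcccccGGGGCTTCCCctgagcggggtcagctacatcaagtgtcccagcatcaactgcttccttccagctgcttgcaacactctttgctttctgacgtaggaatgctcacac
Gpr176 (chr2:118373370-118373669, minus strand): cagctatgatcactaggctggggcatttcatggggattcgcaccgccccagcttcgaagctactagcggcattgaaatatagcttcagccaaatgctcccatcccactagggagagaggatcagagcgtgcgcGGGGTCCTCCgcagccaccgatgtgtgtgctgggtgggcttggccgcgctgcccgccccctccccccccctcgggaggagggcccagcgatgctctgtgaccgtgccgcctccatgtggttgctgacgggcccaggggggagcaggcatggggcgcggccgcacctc
Gpr146 (chr5:139380389-139380688, plus strand): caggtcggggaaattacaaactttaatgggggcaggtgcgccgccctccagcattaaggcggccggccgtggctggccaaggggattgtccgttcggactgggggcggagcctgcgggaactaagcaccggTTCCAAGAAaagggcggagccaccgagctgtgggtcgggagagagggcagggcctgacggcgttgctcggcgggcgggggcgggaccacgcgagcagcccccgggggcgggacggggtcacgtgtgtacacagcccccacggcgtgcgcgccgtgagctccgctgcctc
Counted from the start as 0, the marked match begins at -56 in Ccrl2, at -117 in Gpr176 and at -119 in Gpr146. RefSeq promoter windows were found for 29 of the 42 genes, 41 windows in all. A gamma-activated site was present in 2 of the 41 windows (4.88%), against 8.30% of all 32851 windows in the table, and the interferon-stimulated response element in 0 of 41, against 3.44%. Besides Gpr146, the gamma-activated site lay in the window of Adgrl2. The windows of Adgrl2 and Rgs3 lie 35920 and 54367 bases from the GENCODE M21 start of the entry described here, so they are not the starts of those transcripts. The NF-kB consensus was present in 4 windows (9.76%), against 8.46% of all windows, and the cyclic AMP response element in 1 (2.44%), against 1.79%. A match is a description of letters in these windows and not a measured site.

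Doxycycline in parental cells, the control for the inducer, was followed by a call for 0 of the 42 genes, where 0.909% of the 5390 listed genes were called, 0.111% higher and 0.798% lower. Cuffdiff, the authors' tool, is the only one whose calls are at hand, and no unadjusted p can be had. For 35 of the 42 genes both levels could be rebuilt: 16 were nominally higher and 19 lower with doxycycline, with a median fold of 1.08. These counts take each gene by the entry with levels in most groups. Among those entries the largest gap was that of Ccr2, the receptor of CCL2. It stood at 0.186 FPKM with doxycycline and 0.354 FPKM without, both far under 1 FPKM. A further entry of Ccr2, ENSMUST00000165984, went the other way by a larger fold. A further entry of Ccrl2, ENSMUST00000111888, was also more than 2-fold higher with doxycycline. Both of these entries lay under 1 FPKM in parental cells, and neither has a row in this comparison.

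Induction of CITED1 in unstimulated construct cells likewise gave a call for 0 of the 42 genes, against 0.408% of listed genes by the same Cuffdiff calls, 0.204% higher and 0.204% lower. Both levels could be rebuilt for 36 genes, with a median fold of 1.16 and a largest fold of 1.76, that of Gprc5a (0.233 FPKM with doxycycline and 0.409 without). Among abundant members, Gpr84 stood at 20.0 FPKM with doxycycline and 28.6 FPKM without, and Rgs1 at 23.9 and 29.9 FPKM. S1pr1 stood at 21.2 and 22.6 FPKM, and Gpr176 at 14.8 and 13.0 FPKM. All 4 therefore lie within the 2-fold limit of the table, and no error is at hand to say how much smaller a difference could be seen.

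Among genes of the wider pathway in the same comparison, the phosphodiesterase gene Pde1b, whose enzyme breaks down cyclic nucleotides, rose to 9.55 FPKM, against 1.73 FPKM in untreated construct cells. The chemokine gene Cxcl2 fell to 1.74 FPKM, against 4.34 FPKM (q = 7.5e-04 in the authors' deposited table). Pik3r6, a subunit of the phosphoinositide 3-kinase that G protein beta-gamma subunits activate, was also called higher.

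Construct cells differed from parental cells in a small set of receptors. Without inducer, 7 of the 42 genes were called, 4 higher and 3 lower, which is 16.7% against 4.55% of all listed genes (1.74% higher and 2.8% lower). With doxycycline in both lines, 9 were called, 5 higher and 4 lower, which is 21.4% against 5.6% (2.41% higher and 3.19% lower). These comparisons share no group: 2 genes were higher in both, Gpr179 and Adgrl1, and 3 were lower in both, Adgre1, Ccrl2 and Gprc5a. The shared genes are 50% and 40% of the genes higher without and with doxycycline, and 100% and 75% of those lower. Over all listed genes the shares were 64.9% and 46.9% for the higher ones and 65.6% and 57.6% for the lower ones.

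Adgre1 encodes F4/80, the adhesion receptor used as a surface marker of mouse macrophages. Its level was 12.2 FPKM in untreated construct cells and 28.6 FPKM in untreated parental cells, and 13.95 and 32.6 FPKM with doxycycline. Both differences are 2.34-fold in the authors' deposited table. The latrophilin gene Adgrl1 went the other way, at 0.765 FPKM in construct and 0.256 FPKM in parental cells without inducer and at 1.03 and 0.315 FPKM with it. Its relative Adgrl2 was called with doxycycline, at 1.80 FPKM in construct and 0.891 FPKM in parental cells.

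Of the orphan receptors, Gpr179, known from retinal bipolar cells, was 12.7-fold higher in construct cells without inducer (q = 0.0021) and 8.27-fold higher with doxycycline in the authors' deposited table. Its levels were low, 1.56 FPKM in construct and 0.123 FPKM in parental cells, and 1.64 and 0.199 FPKM with doxycycline. Gprc5a, a class C orphan receptor induced by retinoic acid, was lower: 0.409 FPKM in construct against 1.41 FPKM in parental cells without inducer, and 0.233 against 1.41 FPKM with doxycycline. Gpr162, an orphan receptor seen here through a retained-intron transcript, was 1.02 FPKM in untreated construct cells and 0.339 FPKM in untreated parental cells (q = 0.0086 in the authors' deposited table). Gpr146 was called with doxycycline (3.13 FPKM in construct and 1.43 FPKM in parental cells, q = 0.042 in the authors' deposited table). Without inducer Gpr146 differed by a like ratio, 3.28 and 1.64 FPKM, right at the 2-fold limit, and has no row.

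Ccrl2 encodes an atypical receptor that binds chemerin without signalling through G proteins. It was 0.621 FPKM in construct and 2.10 FPKM in parental cells without inducer (q = 0.016), and 0.495 and 1.94 FPKM with doxycycline (q = 0.0043 in the authors' deposited table). Gpr84, a receptor of medium-chain fatty acids, was called with doxycycline, at 20.0 FPKM in construct and 49.4 FPKM in parental cells, and stood at 28.6 and 47.4 FPKM without inducer, under the 2-fold limit. Among the RGS genes, Rgs16 was 0.798 FPKM in untreated construct and 0.119 FPKM in untreated parental cells (q = 0.0018), and Rgs11 was 4.81 and 2.16 FPKM with doxycycline (q = 0.018 in the authors' deposited table). The Rgs11 entry is annotated as a retained intron. No gene of the intracellular class was called in either comparison of the lines.

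In the wider pathway C5ar1, the receptor of complement C5a, was the member of the list of other leukocyte receptors that was lower in construct cells in both comparisons. It stood at 4.06 FPKM against 16.6 FPKM in untreated parental cells, and at 2.89 against 17.0 FPKM with doxycycline. Ptgs2, the inducible enzyme of prostaglandin synthesis, and the chemokine gene Ccl4 were also lower in both. Plpp3, a phosphatase that removes lysophosphatidic acid, was also called lower in both, and with doxycycline was 0.130 FPKM in construct and 1.06 FPKM in parental cells. No gene for a G protein subunit, a receptor kinase or an arrestin was called between the lines.

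**Figure D2:**
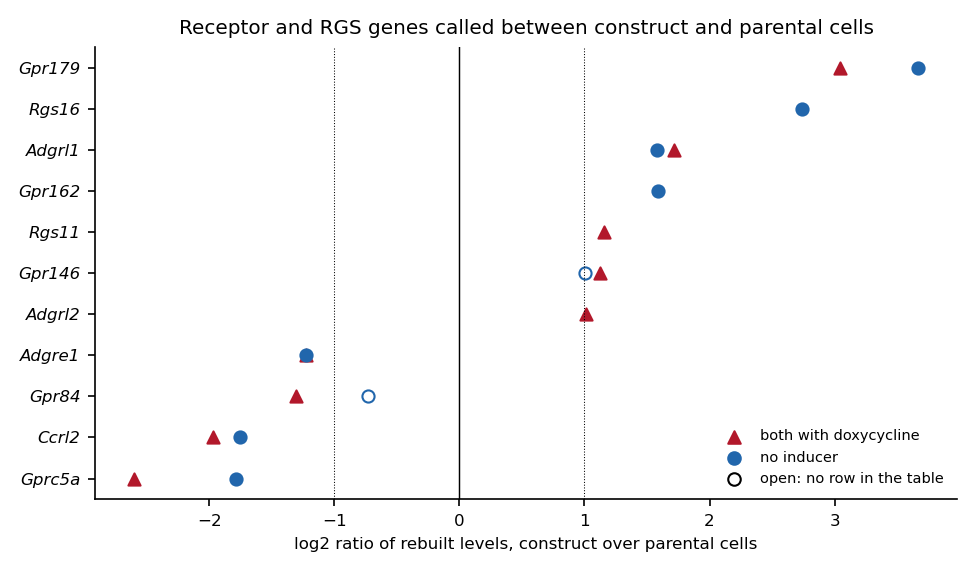
The log2 ratio of rebuilt levels, construct over parental cells, for the 11 genes called in either comparison of the lines. Triangles are cells with doxycycline in both lines, circles untreated cells, open symbols ratios without a row, and dotted lines the 2-fold limit. The points lie on the same side of 0 for each gene with levels in both comparisons.

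Interferon-gamma was followed by calls in both directions, among these genes as among all listed genes. In construct cells without doxycycline 25 of the 42 were called, 13 higher and 12 lower, which is 59.5% against 50.2% of all listed genes (31.0% against 25.7% higher, 28.6% against 24.3% lower). With CITED1 induced in both groups 37 were called, 22 higher and 15 lower, which is 88.1% against 67.7% (52.4% against 33.7% higher, 35.7% against 33.9% lower). The median log2 ratio of the called members was 1.07 without doxycycline and 1.18 with CITED1 induced, beside 1.01 and -1.0 over all called genes. No called gene lies within the 2-fold limit, so the sign of such a median follows the direction with more genes. Over all called genes 1387 were higher and 1309 lower without doxycycline, and 1817 higher and 1826 lower with CITED1 induced. Without doxycycline the largest rises were those of Ccrl2, Rgs16, Gpr34, Ccr1 and Rgs1, and the largest falls those of S1pr1, Cxcr4, Lpar5 and Gpr176.

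These comparisons share no group. All 13 genes higher without doxycycline were also higher with CITED1 induced, where they are 59.1% of those higher, and all 12 genes that were lower were also lower there, 80.0% of those lower. Over all listed genes the shares were 82.4% and 62.9% for higher genes and 81.4% and 58.4% for lower ones. The genes called with CITED1 induced alone were Ccr2, Cxcr5, Gpr107, P2ry10b, Ptger4, Rgs2, Rgs14, Rgs19 and S1pr2 (higher) and Adgre1, Gpr162 and P2ry2 (lower). A missing row is no sign of a missing change, and whether the responses differ was not tested. Ccr2 and Cxcr5 had rebuilt ratios of 3.35 and 5.38 without doxycycline and no row.

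The scaling bears on the split between rises and falls. Over listed entries of at least 1 FPKM the median log2 ratio was 0.65 without doxycycline and 1.02 with CITED1 induced. Relative to those medians 7 of the called genes were at least 2-fold higher and 12 lower without doxycycline, and 10 higher and 15 lower with CITED1 induced. Genes without a row were not counted here, and some of them also pass 2-fold relative to the median without doxycycline. Relative to its median Gpr157 no longer lay above 0 with CITED1 induced. That median falls between changed genes of either direction, since 4.13% and 1.49% of the entries lay within 0.5 of 0.

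**Figure D3:**
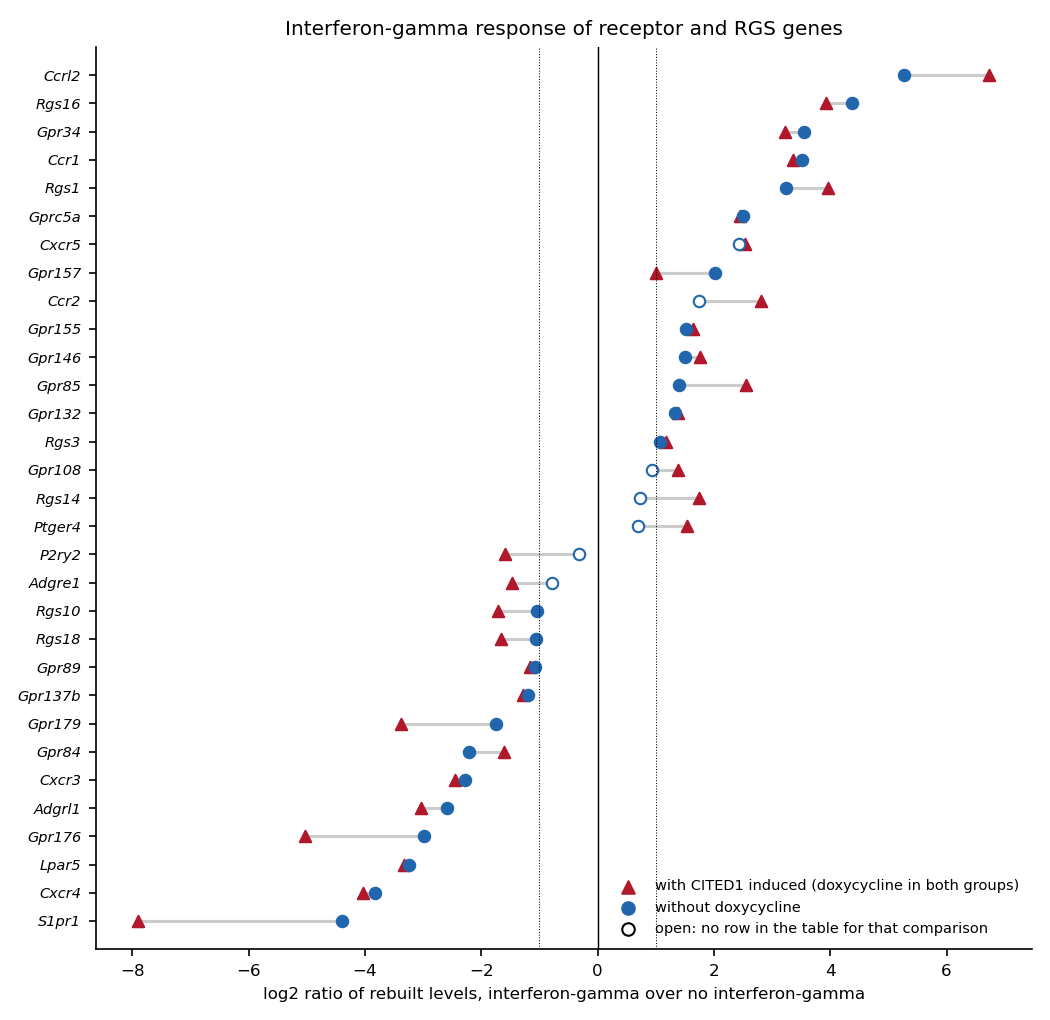
The log2 ratio of rebuilt levels, interferon-gamma over no interferon-gamma, for the 31 genes with levels in all 4 construct groups. Triangles are cells with CITED1 induced, circles cells without doxycycline, open circles ratios without a row, and dotted lines the 2-fold limit. The ratios have the same sign in both for each gene, and are furthest apart for S1pr1, Gpr176 and Gpr179. The levels of these genes with both treatments are under 1 FPKM (0.0889, 0.454 and 0.157 FPKM), so their ratios are uncertain.

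Chemokine receptors split. Ccrl2 (entry ENSMUST00000199839) reached 52.9 FPKM with both treatments against 0.495 FPKM with doxycycline alone, and 24.1 FPKM with interferon-gamma alone against 0.621 FPKM in untreated construct cells. A further Ccrl2 transcript, ENSMUST00000111888, stood at 22.9 against 0.445 FPKM and at 11.5 against 0.412 FPKM. Both transcripts thus had their highest level with both treatments. Ccr1, a receptor of CCL3 and CCL5, reached 13.5 FPKM with both treatments against 1.31 FPKM with doxycycline alone, and 13.0 FPKM with interferon-gamma alone against 1.14 FPKM untreated. The 4 groups without interferon-gamma, parental cells included, lay between 1.14 and 1.31 FPKM for Ccr1.

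Cxcr4, the receptor of CXCL12, fell to 0.380 FPKM with both treatments against 6.20 FPKM with doxycycline alone, and to 0.564 FPKM with interferon-gamma alone against 8.02 FPKM untreated. Cxcr3, whose ligands CXCL9, CXCL10 and CXCL11 are known as interferon-induced, fell to 1.97 against 10.8 FPKM and to 1.88 against 9.10 FPKM. The genes of these ligands have no row of their own here. The levels of Cxcr3 with interferon-gamma lay close together with and without doxycycline. Cxcr5, the receptor of CXCL13, was 2.51 against 0.432 FPKM with CITED1 induced (q = 0.0069 in the authors' deposited table). Ccr2 was 4.11 against 0.583 FPKM there and 1.54 against 0.461 FPKM, without a row, in cells without doxycycline. Reads of Ccr2 may be shared with those of genes of similar sequence, so its level is uncertain.

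The sphingosine 1-phosphate receptors moved in opposite directions. S1pr1 (entry ENSMUST00000055676), a Gi-coupled receptor that draws leukocytes toward blood and lymph, was 0.0889 FPKM with both treatments against 21.2 FPKM with doxycycline alone, and 1.08 FPKM with interferon-gamma alone against 22.6 FPKM untreated. Parental cells stood at 20.5 and 18.2 FPKM with and without doxycycline, so the 4 groups without interferon-gamma lay between 18.2 and 22.6 FPKM. S1pr2, which couples to G12 and G13 as well and holds cells in place, rose to 26.4 FPKM with both treatments against 9.79 FPKM with doxycycline alone. The level of S1pr2 with interferon-gamma alone is not given by any row, while the other 3 groups without interferon-gamma stood at 9.34 to 9.82 FPKM.

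Among receptors of lysophospholipids, Lpar5, for lysophosphatidic acid, fell to 2.08 against 20.8 FPKM with CITED1 induced and to 2.15 against 20.4 FPKM without doxycycline. Gpr34, for lysophosphatidylserine, rose to 13.0 against 1.39 FPKM and to 11.6 against 0.989 FPKM (q = 0.0033 for the comparison without doxycycline in the authors' deposited table). Gpr132, a lipid-responsive receptor, rose to 16.4 against 6.27 FPKM and to 15.3 against 6.09 FPKM. For all 3 the levels with interferon-gamma lay close together with and without doxycycline, and well apart from those without interferon-gamma. P2ry10b, of the P2Y-like family, was 20.7 against 9.997 FPKM with CITED1 induced and has no level with interferon-gamma alone.

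Gpr84 fell to 6.53 against 20.0 FPKM with CITED1 induced and to 6.20 against 28.6 FPKM without doxycycline. Ptger4, the Gs-coupled prostaglandin E2 receptor EP4, rose with CITED1 induced to 7.46 against 2.56 FPKM (q = 0.0027 in the authors' deposited table). Without doxycycline it stood at 5.61 and 3.45 FPKM, under the 2-fold limit. P2ry2, the receptor of ATP and UTP, was 0.876 against 2.64 FPKM with CITED1 induced (q = 0.013 in the authors' deposited table), and 1.80 against 2.24 FPKM, without a row, in cells without doxycycline. Gpr183, the oxysterol receptor EBI2, has no row in any of the 7 comparisons described here. Its single row sets interferon-gamma alone, at 18 FPKM, against doxycycline alone, at 37.8 FPKM (q = 0.010 in the authors' deposited table), groups that differ in both treatments.

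The adhesion receptor gene Adgre1 fell with CITED1 induced to 5.03 against 13.95 FPKM and was 7.10 against 12.2 FPKM, under the 2-fold limit, without doxycycline. Across the 6 groups it ran from 5.03 FPKM with both treatments to 32.6 FPKM in parental cells with doxycycline. Adgrl1 fell to 0.126 against 1.03 FPKM and to 0.128 against 0.765 FPKM. For Adgrl2 the level with interferon-gamma alone was 2.08 FPKM, and the untreated construct level is not given by any row.

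Orphan receptors also went both ways, 4 higher and 2 lower without doxycycline and 4 higher and 3 lower with CITED1 induced, of 7. Over all listed genes the shares were 25.7% higher and 24.3% lower without doxycycline and 33.7% higher and 33.9% lower with CITED1 induced. Gpr176 (entry ENSMUST00000039160), a Gz-coupled orphan receptor studied in the circadian clock of the mouse brain, fell to 0.454 FPKM with both treatments against 14.8 FPKM with doxycycline alone. With interferon-gamma alone it fell to 1.64 against 13.0 FPKM untreated. Gpr146 rose to 10.7 against 3.13 FPKM and to 9.32 against 3.28 FPKM. Gprc5a rose to 1.27 against 0.233 FPKM and to 2.32 against 0.409 FPKM, so that construct cells given interferon-gamma came near or above the parental level of 1.41 FPKM.

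Gpr85, a highly conserved orphan receptor best known from brain, rose to 2.67 against 0.456 FPKM and to 1.50 against 0.567 FPKM (q = 0.0072 for the comparison without doxycycline in the authors' deposited table). Gpr157 rose to 0.914 against 0.456 FPKM and to 1.49 against 0.367 FPKM, the first of which is 2.01-fold in the authors' deposited table (q = 7.5e-04). Gpr179 fell to 0.157 against 1.64 FPKM and to 0.463 against 1.56 FPKM. Gpr162 fell with CITED1 induced to 0.340 against 1.19 FPKM (q = 0.0021 in the authors' deposited table). Both Gpr179 and Gpr162, which stood lower with interferon-gamma, had been called higher in untreated construct than in parental cells.

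In the intracellular class 2 genes were higher and 2 lower without doxycycline and 3 higher and 2 lower with CITED1 induced, of 6, beside 50.2% and 67.7% of all listed genes called. Gpr155, a lysosomal cholesterol sensor, rose to 3.68 against 1.18 FPKM with CITED1 induced and to 3.78 against 1.32 FPKM without doxycycline. Gpr108 (entry ENSMUST00000005975) rose to 19.8 against 8.36 FPKM and to 14.9 against 7.12 FPKM. The leading entry of Gpr108, ENSMUST00000233568, rose to 23.5 against 9.03 FPKM with CITED1 induced. Without doxycycline that entry stood at 19.04 against 9.955 FPKM, under the 2-fold limit and without a row. The leading entry of Gpr107 rose to 19.96 against 8.95 FPKM with CITED1 induced. A retained-intron entry of Gpr107, ENSMUST00000172422, rose to 10.3 against 2.39 FPKM there, 4.33-fold in the authors' deposited table (q = 0.0033). Gpr89 fell to 5.20 against 11.6 FPKM and to 5.72 against 12.0 FPKM. Gpr137b fell to 7.64 against 18.7 FPKM and to 8.04 against 18.4 FPKM. Gpr137b-ps, its pseudogene, has no row in the 7 comparisons and stood at 27.5 FPKM with both treatments, 28.8 with interferon-gamma alone and 55.4 in untreated construct cells, against 70.2 and 64.8 in parental cells with and without doxycycline. Reads of Gpr137b and Gpr137b-ps may have been shared, so their levels are uncertain.

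Of the 9 RGS genes 3 were higher and 2 lower without doxycycline, and 6 higher and 2 lower with CITED1 induced, where 50.2% and 67.7% of all listed genes were called. Rgs1, an RGS protein of lymphocytes and macrophages that dampens chemokine receptor signals, had the highest level at hand of the 42 genes in both groups given interferon-gamma. Its leading entry, ENSMUST00000169409, stood at 371.9 FPKM with both treatments against 23.9 FPKM with doxycycline alone, and at 281.6 FPKM with interferon-gamma alone against 29.9 FPKM untreated. This entry is annotated as a target of nonsense-mediated decay. The protein-coding entry of Rgs1, ENSMUST00000189061, stood at 78.9 against 6.03 FPKM and at 61.5 against 7.73 FPKM. All 5 entries of Rgs1 were called higher with CITED1 induced, with folds of 7.19 to 16.1 and q up to 0.0094 in the authors' deposited table. Without doxycycline 4 of the 5 were called, with q up to 0.012 in the authors' deposited table.

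Rgs16, a small RGS protein, rose to 18.6 against 1.22 FPKM and to 16.6 against 0.798 FPKM. Rgs3 rose to 8.53 against 3.78 FPKM and to 6.998 against 3.33 FPKM. Rgs2, which prefers Gq, rose with CITED1 induced to 84.4 against 34.03 FPKM, and Rgs19 to 8.01 against 2.08 FPKM (q = 0.036 for Rgs19 in the authors' deposited table). Neither has a level with interferon-gamma alone. Rgs14, a scaffold that also binds inactive Gi alpha through its GoLoco motif, rose with CITED1 induced to 29.2 against 8.71 FPKM. Without doxycycline Rgs14 stood at 14.6 and 8.81 FPKM, under the 2-fold limit.

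The RGS genes that fell were Rgs10 and Rgs18, small RGS proteins of microglia and other myeloid cells. Rgs10 was 18.6 against 60.98 FPKM with CITED1 induced and 27.97 against 57.9 FPKM without doxycycline. Rgs18 was 3.30 against 10.4 FPKM and 5.07 against 10.6 FPKM. For both the lowest of the levels at hand was that with both treatments.

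Genes that act with these receptors were called as well. Their counts stand beside 25.7% higher and 24.3% lower over all listed genes without doxycycline and 33.7% and 33.9% with CITED1 induced, and their medians beside a log2 ratio of 1.01 and -1.0 over all called genes. The sign of these medians again follows the direction with more genes, apart from the G protein subunits without doxycycline. Over all called genes the directions were nearly even. No list was tested against the others. In this account the first pair of levels of a gene is with CITED1 induced and the second without doxycycline.

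Of the chemokine ligand list, 9 of 37 genes have a row anywhere: 8 were higher and 1 lower with CITED1 induced (median log2 ratio 2.72), and 5 higher and 1 lower without doxycycline (2.17). Ccl22, a ligand of the receptor CCR4, rose to 80.3 against 0.171 FPKM and to 71.2 against 0.0648 FPKM (q = 0.011 without doxycycline in the authors' deposited table). Ccl6 rose to 44.9 against 1.63 FPKM and to 26.4 against 1.35 FPKM. Both were thus scarce in construct cells without interferon-gamma. Cxcl16 rose to 124.3 against 23.0 FPKM without doxycycline, and Ccl7, a ligand of CCR2, to 3.20 against 0.399 FPKM with CITED1 induced (q = 0.0037 in the authors' deposited table). Cxcl14 fell to 1.13 against 8.06 FPKM and to 1.13 against 11.9 FPKM.

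Of the list of other leukocyte receptors, 16 of 64 have a row, with 8 higher and 5 lower with CITED1 induced (median log2 ratio 1.47) and 6 higher and 3 lower without doxycycline (1.04). Xcr1, the XCL1 receptor of dendritic cells, rose to 17.7 against 0.036 FPKM and to 6.61 against 0.043 FPKM (q = 0.013 and 0.0051 in the authors' deposited table). Cx3cr1, the fractalkine receptor, fell to 2.03 against 101.2 FPKM and to 3.60 against 130.5 FPKM. Calcrl, of the calcitonin gene-related peptide receptor, rose to 65.7 against 12.3 FPKM and to 45.3 against 13.0 FPKM. Ltb4r1, the leukotriene B4 receptor, was among the 4 largest folds with CITED1 induced, at 4.91 against 0.232 FPKM, and the prostacyclin receptor gene Ptgir among those without doxycycline, at 5.25 against 1.71 FPKM. With interferon-gamma alone Ltb4r1 stood at 10.3 FPKM, above its level with both treatments.

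Second messenger enzymes had 5 genes higher and 9 lower with CITED1 induced (median log2 ratio -1.31) and 4 higher and 9 lower without doxycycline (-1.14), of 17 with a row. Dgka, a diacylglycerol kinase, rose to 12.8 against 0.845 FPKM and to 12.5 against 0.783 FPKM. The cyclic AMP phosphodiesterase gene Pde4b rose to 8.72 against 1.53 FPKM and to 6.56 against 1.54 FPKM. Prkar2b, a regulatory subunit of protein kinase A, fell to 0.569 against 6.53 FPKM and to 1.42 against 6.43 FPKM. Of the other phosphodiesterases that break down cyclic nucleotides, Pde2a fell to 2.84 against 15.8 FPKM with CITED1 induced and Pde1b rose to 8.56 against 1.73 FPKM without doxycycline.

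Of the G protein subunits 6 were higher and 3 lower with CITED1 induced (median log2 ratio 1.13), and 2 higher and 2 lower without doxycycline (1.15), of 9 with a row. Gnb4, a beta subunit, rose to 1.06 against 0.0563 FPKM and to 1.104 against 0.0762 FPKM. Gng12, a gamma subunit, stood at 76.7 against 16.2 FPKM and at 39.6 against 17.8 FPKM (q = 7.5e-04 without doxycycline in the authors' deposited table), but its entries did not all go one way without doxycycline. Gng12 therefore enters the median without doxycycline but is counted in neither direction there. Gna13, the G13 alpha subunit, rose to 92.02 against 41.3 FPKM without doxycycline. With CITED1 induced the gamma subunit genes Gng2 and Gng10 stood at 11.4 against 2.28 FPKM (q = 0.0057 in the authors' deposited table) and at 29.4 against 69.4 FPKM.

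Of the receptor kinase and arrestin list, 3 of 14 have a row. Arrdc3, an arrestin-domain gene, rose to 6.28 against 1.30 FPKM and to 8.11 against 1.80 FPKM. Its relative Arrdc4 rose to 8.70 against 2.04 FPKM without doxycycline, and Grk6, a kinase of activated receptors, fell to 8.95 against 20.7 FPKM with CITED1 induced.

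Enzymes that make or remove ligands had 5 genes higher and 3 lower with CITED1 induced (median log2 ratio 1.22) and 6 higher and 1 lower without doxycycline (1.38), of 14 with a row. Entpd1, the ectonucleotidase CD39 that removes ATP, the ligand of P2ry2, rose to 28.9 against 0.622 FPKM and to 33.0 against 0.418 FPKM. Faah, the hydrolase of the endocannabinoid anandamide, rose to 2.86 against 0.258 FPKM and to 2.43 against 0.181 FPKM. Hsd3b7, which inactivates the oxysterol ligand of Gpr183, rose to 37.6 against 8.73 FPKM and to 44.2 against 8.57 FPKM. Alox5, the first enzyme of leukotriene synthesis, fell to 0.268 against 8.43 FPKM and to 0.712 against 12.9 FPKM.

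Of receptor-associated proteins 3 were higher and 1 lower with CITED1 induced (median log2 ratio 1.48) and 2 higher and 1 lower without doxycycline (1.17), of 5 with a row. Homer1, a scaffold of glutamate receptors in neurons, rose to 7.02 against 1.35 FPKM and, by another entry, to 5.74 against 1.47 FPKM. Gpsm2 and Gpsm3 encode proteins that bind inactive Gi alpha subunits. Gpsm2 fell to 3.63 against 15.8 FPKM and to 5.05 against 16.1 FPKM, while Gpsm3 rose to 77.9 against 31.7 FPKM and to 67.1 against 29.8 FPKM. Ric8a, a chaperone of G alpha subunits, rose to 9.03 against 2.86 FPKM with CITED1 induced (q = 0.021 in the authors' deposited table).

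Induction of CITED1 in interferon-gamma-stimulated cells brought calls for 7 of the 42 genes, 5 higher and 2 lower, which is 16.7% against 13.2% of all listed genes (11.9% against 6.85% higher, 4.76% against 6.38% lower). Among the higher ones were the chemokine receptor genes Ccr2 and Ccrl2 with Gpr85 and Rgs14, and lower were S1pr1 and Gpr176. No gene of the adhesion or intracellular class was called. No group received interferon-gamma and doxycycline without the construct, so induced CITED1 and the inducer cannot be told apart in stimulated cells.

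Ccrl2 stood at 52.9 FPKM with both treatments and 24.1 FPKM with interferon-gamma alone, a 2.2-fold difference in the authors' deposited table. Ccr2 stood at 4.11 and 1.54 FPKM, a call close to the limit (q = 0.046 in the authors' deposited table). A further entry of Ccr2, ENSMUST00000165984, was 4.85 FPKM with both treatments and 4.61 FPKM with interferon-gamma alone. The entries of Ccr2 therefore differ in this comparison. Ccr1 was 13.5 FPKM with both treatments and 13.0 FPKM with interferon-gamma alone and has no row.

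Gpr85 was called through a transcript without a level in untreated construct cells, ENSMUST00000115492, at 6.13 FPKM with both treatments and 1.60 FPKM with interferon-gamma alone (q = 0.013 in the authors' deposited table). Its other entry stood at 2.67 and 1.50 FPKM, under the 2-fold limit. Rgs14 stood at 29.2 and 14.6 FPKM, which is 2.00-fold in the authors' deposited table and the smallest listed fold of the 42 genes. Relative to the median log2 ratio of listed entries in this comparison, 0.10, Rgs14 lay under the 2-fold limit.

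S1pr1 stood at 0.0889 FPKM with both treatments and 1.08 FPKM with interferon-gamma alone. This 12.1-fold difference is the largest of the 42 genes here in the authors' deposited table, between levels at or below about 1 FPKM. Gpr176 stood at 0.454 and 1.64 FPKM, a 3.61-fold difference in the authors' deposited table. Both genes had stood above 12 FPKM in construct cells without interferon-gamma. With a pseudocount of 1 FPKM the log2 ratios were -0.93 for S1pr1 and -0.86 for Gpr176, where they are -3.60 and -1.85 without it.

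For 27 genes, Gpr85 among them, the leading entry has both levels but no row, 13 nominally higher and 14 lower with both treatments, with a median fold of 1.22. Near the limit on the lower side were P2ry2 (0.876 and 1.80 FPKM) and Gpr179 (0.157 and 0.463 FPKM), whose rebuilt ratios pass 2-fold without a row. Just under it were Gprc5a at 1.27 and 2.32 FPKM and Gpr157 at 0.914 and 1.49 FPKM. Also without a row, Rgs10 stood at 18.6 and 27.97 FPKM, Rgs1 at 371.9 and 281.6 FPKM, Rgs16 at 18.6 and 16.6 FPKM, Gpr34 at 13.0 and 11.6 FPKM and Gpr132 at 16.4 and 15.3 FPKM. Lpar5, Cxcr3 and Gpr84, which had fallen with interferon-gamma, stood at 2.08 and 2.15, 1.97 and 1.88, and 6.53 and 6.20 FPKM.

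**Figure D4:**
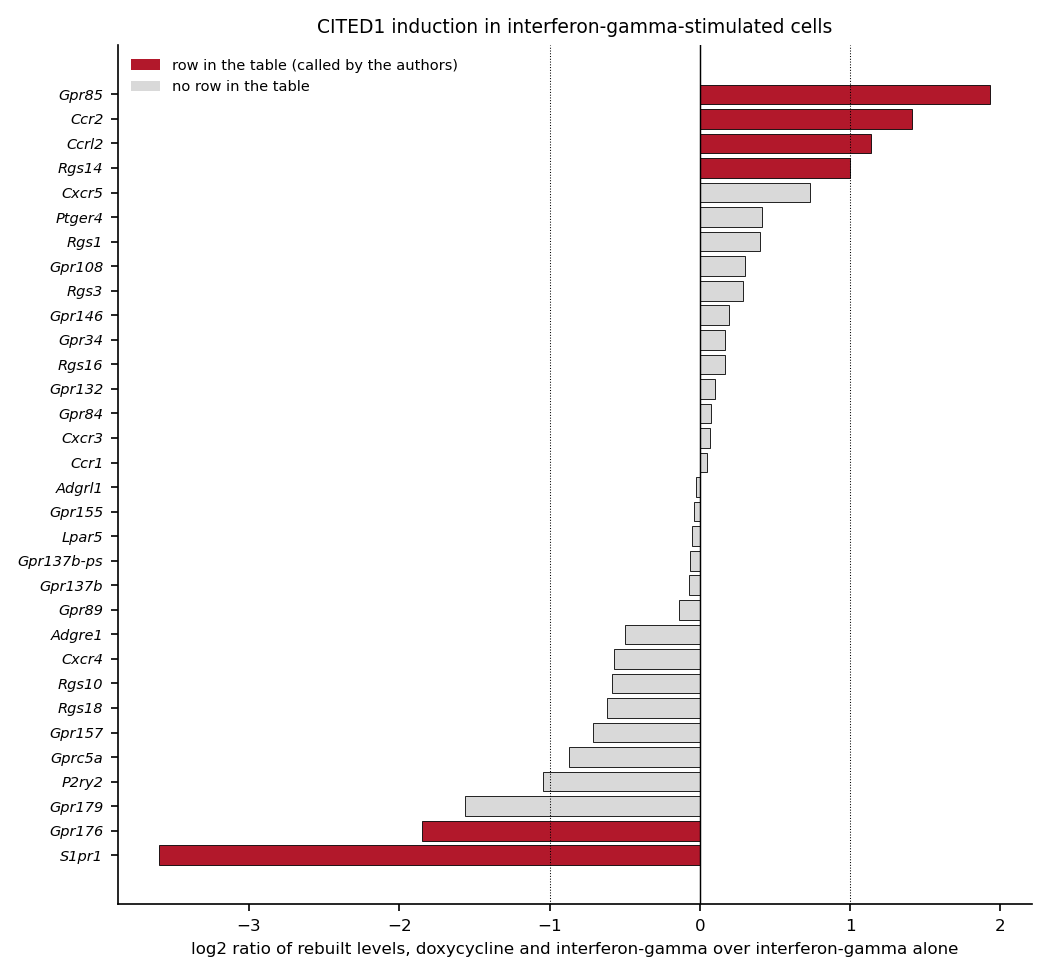
The log2 ratio of rebuilt levels, doxycycline and interferon-gamma over interferon-gamma alone, for 32 genes with both levels or a row. Red bars are genes called by the authors, grey bars genes without a row, and dotted lines the 2-fold limit. S1pr1 and Gpr176 lie lowest, Gpr85 highest.

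Chemokine ligand genes were called as well in this comparison. Of the chemokine ligand list 5 of the 9 genes with a row were higher and 0 lower, beside 6.85% higher and 6.38% lower over all listed genes. The list's median log2 ratio was 1.26, beside 1.01 over all called genes, and the split was not tested. Ccl2, the ligand of Ccr2, was 95.5 FPKM with both treatments and 41.2 FPKM with interferon-gamma alone. Ccl3 was 504.3 and 210.1 FPKM, and Ccl4 was 482.0 and 192.8 FPKM. Cxcl2 was 12.0 and 4.41 FPKM. Among other leukocyte receptors 4 were higher and 3 lower, with Fpr2, a formyl peptide receptor, at 5.43 and 1.85 FPKM (q = 0.0030 in the authors' deposited table) and Ptafr, the receptor of platelet-activating factor, at 81.6 and 29.9 FPKM. C3ar1, the receptor of complement C3a, was 64.5 and 26.4 FPKM, and Xcr1 was 17.7 and 6.61 FPKM. The 3 lower ones were Ltb4r1 at 4.91 and 10.3 FPKM, Ptgir at 2.295 and 5.255 FPKM, and Mrgpre at 0.522 and 1.14 FPKM.

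Among second messenger enzymes 3 were higher and 3 lower. Pde1b was 32.2 FPKM with both treatments and 8.55 FPKM with interferon-gamma alone, and Prkar2b was 0.567 and 1.41 FPKM (q = 0.0018 in the authors' deposited table). Pik3r6 was 1.64 and 0.357 FPKM (q = 0.031), and Pde2a 2.84 and 7.88 FPKM (q = 0.044 in the authors' deposited table). These 4 are the largest folds of that list here. Gng12 was the G protein subunit called, through a minor entry at 11.8 and 4.13 FPKM (q = 0.034 in the authors' deposited table), and Arrdc4 the gene of the receptor kinase and arrestin list, at 4.09 and 8.70 FPKM. Enzymes of ligand metabolism had 0 genes higher and 3 lower, Alox5, Napepld and Ptges, of which Napepld, an enzyme of endocannabinoid synthesis, reached 1 FPKM, at 0.773 and 2.46 FPKM (q = 0.012 in the authors' deposited table).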

How the data were processed

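Poly(A) RNA of 18 samples in 6 groups, set by their titles, was sequenced from directional libraries, per the labels. The submitters' processing notes list, without roles, Cuffdiff 2.2.1, edgeR, featureCounts, STAR 2.5.3a and FastQC 0.11.5. The genome build was not given in the sources used here, nor were the annotation, FPKM scaling and use of strand. The deposited table holds, per the file headers, a linear fold ratio, the FPKM total of 2 groups and a q-value, which is the authors' adjusted p-value.

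Of its 112230 rows, 34824 compare the 6 groups, and 77406 rows that name other groups were not used. Taking the total as a sum, the lower level equals total/(1 + fold), and the higher level is fold times that. The median was used where a level came from several rows. Repeats of 183 member levels from 1 FPKM upward spread by 0.0613% in the median and 0.418% at most.

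In the 7 comparisons the calls are the authors'. Genes whose called entries all moved in one direction were counted in that direction. Values come from the called entry of largest total or, across groups, of the entry with most levels. As foreseen in the design, no test on samples was run, nor any test between comparisons. Percentages refer to the 5390 genes with 1 symbol and a row among the 6 groups, because genes without a row are not in the table. The 42 members include 1 gene that is counted but not reported here. All other called members are named, and of 7 lists of other signalling genes the up to 4 with the largest folds and at least 1 FPKM, in both interferon-gamma comparisons and in the one of both treatments against interferon-gamma. Other genes named beside them were chosen after their values were seen. Members and lists were chosen with earlier results of these data known. Transcript types came from GENCODE M21, where all 56 entries were found, and promoters from RefSeq (GRCm38.p6).

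The alternatives tried were stricter q (at most 0.01), at least 1 FPKM, a pseudocount of 1 FPKM with a 1.5-fold limit, rescaling by the median log2 ratio, and summing or counting entries. Protein-coding entries alone were an alternative chosen after seeing the data. The computation was checked on simulated data. Python 3.11.15, pandas 2.3.3 and numpy 2.4.6 were used.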

Additional observations from a re-analysis of the deposited data

How the results depend on the processing

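The number of the 42 genes called stayed within 1.5 times its value in all 7 comparisons under each alternative tried, which were a q of 0.01 or less, at least 1 FPKM, the pseudocount, rescaling, counting entries and protein-coding entries. All of these work on the authors' called rows, so a gene without a call could not enter. The 2 comparisons with 0 calls therefore stayed at 0 by construction. By direction 5 of the counts moved further: with a minimum of 1 FPKM the genes higher in construct than in parental cells without inducer went to 2 in place of 4. At a q of 0.01 or less the genes higher in construct cells with doxycycline went to 3 in place of 5, and those higher with CITED1 induction in stimulated cells to 3 in place of 5. Rescaling left 7 of 13 genes higher with interferon-gamma and 10 of 22 with CITED1 induced. It turned Gpr157 in the comparison with CITED1 induced to a log2 ratio of -0.0095, from a fold at the limit of the table. Another 21 values, these 2 counts included, were weaker after rescaling. With the pseudocount 3 single-gene ratios fell under 1.5-fold, those of Adgrl1 and Adgrl2 between the lines and of Gpr157. No paired analysis was possible because the table holds no values per sample, and for the same reason no replicate could be left out. Depth is unknown, and levels under 1 FPKM carry an error that cannot be stated.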
